A study of Mus musculus with 8 samples.

Results

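The C/EBP transcription factors (CCAAT/enhancer binding proteins) were followed in 8 mouse livers. The family has 6 genes: Cebpa, Cebpb, Cebpd, Cebpe, Cebpg and Ddit3 (which encodes CHOP). They were found by gene symbol among the 55450 entries of the deposited expression tables, where they hold 7 entries because Ddit3 appears under 2 identifiers. Entries with any count numbered 6, 1 for each gene, and all 6 had enough counts to be tested. The 4 control livers came from Cre- mice with Cebpa flox/flox, and the 4 knockout livers from Cre+ hepatocyte Cebpa knockout mice. All mice were 10 weeks old and took liquid control food for 5 days before 4 weeks on a liquid food that held 5% ethanol (vol/vol). The comparison asks how the family differs between the genotypes under ethanol feeding. Every liver was exposed to ethanol, so no value here measures a response to it. The promoter that drives Cre is not given in the sources used here.

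C/EBP proteins carry a basic region that contacts DNA and a leucine zipper through which they pair with each other and with other bZIP proteins. C/EBP alpha maintains the programme of the mature hepatocyte, including genes of glucose and lipid metabolism and of plasma proteins. C/EBP beta and C/EBP delta are best known in liver for responses to interleukin 6, endotoxin and regeneration, C/EBP epsilon for the late maturation of granulocytes, and C/EBP gamma as a partner that lacks an activation domain of its own. CHOP pairs with other members and is induced through the integrated stress response. Because the proteins bind similar sites, the levels of all members bear on which dimers a cell can form.

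The stretch of coding sequence over the basic region is shown because Cebpa, Cebpb, Cebpd and Cebpe share their longest runs there. RNA-seq reads of paralogs can be confused in such a stretch. Each line is 105 bases of the GENCODE M21 coding sequence (mm10), read 5′ to 3′ on the coding strand. In the lines of Cebpa, Cebpb, Cebpd and Cebpe capitals mark the 66 positions identical in all 4 genes. In the line of Cebpg capitals mark positions identical to Cebpa.
Cebpa: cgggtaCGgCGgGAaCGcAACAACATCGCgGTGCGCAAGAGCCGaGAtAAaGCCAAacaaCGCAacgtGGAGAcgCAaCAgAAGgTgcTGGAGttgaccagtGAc
Cebpb: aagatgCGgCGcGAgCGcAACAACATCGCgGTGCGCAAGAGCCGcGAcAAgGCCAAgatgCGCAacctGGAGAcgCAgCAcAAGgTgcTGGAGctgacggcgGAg
Cebpd: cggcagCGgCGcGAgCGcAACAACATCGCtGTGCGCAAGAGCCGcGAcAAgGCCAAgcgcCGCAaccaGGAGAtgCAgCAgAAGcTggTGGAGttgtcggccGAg
Cebpe: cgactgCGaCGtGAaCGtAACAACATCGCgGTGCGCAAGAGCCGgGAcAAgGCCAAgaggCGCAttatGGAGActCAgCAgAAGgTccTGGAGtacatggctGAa
Cebpg: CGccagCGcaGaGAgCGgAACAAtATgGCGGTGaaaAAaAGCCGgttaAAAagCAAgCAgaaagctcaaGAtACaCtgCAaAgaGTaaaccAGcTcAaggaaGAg
The windows lie at chr7:35120277-35120381 (plus strand, Cebpa), chr2:167689697-167689801 (plus, Cebpb), chr16:15887907-15888011 (plus, Cebpd), chr14:54710659-54710763 (minus, Cebpe) and chr7:35050537-35050641 (minus, Cebpg). Identity to the Cebpa window was 79.0% for Cebpb, 77.1% for Cebpd, 75.2% for Cebpe and 50.5% for Cebpg. For Ddit3 the in-frame window with most bases identical to Cebpa, from coding base 337, gave 42.9%. The longest run shared by Cebpb and Ddit3 starts at coding base 778 of Cebpb and 406 of Ddit3. By that run the Ddit3 window is out of register with the Cebpb window, which starts at 676. The 42.9% is therefore not the identity of the Ddit3 basic region.

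The longest run shared by any pair of members was 29 bases, between Cebpa and Cebpb: CGCAACAACATCGCGGTGCGCAAGAGCCG. No run of 50 bases was shared between the transcripts of different members. Sharing with genes on the opposite strand was more extensive. Of the 50-base words in Cebpb transcripts, 18.1% lay antisense in Tmem189, and of those in Cebpd transcripts 13.7% lay antisense in Spidr. The overlaps cover 312 exonic bases of Cebpb and 562 of Cebpd. The library kit keeps strand, but the strand setting of the counting is not given in the sources used here. If strand was ignored, reads in those overlaps cannot be told apart.

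Control 2 had the lowest total of expected counts (21048350) and knockout 4 the highest (28148744). Levels below are CPM, counts scaled to library size, on which 1 count was worth 0.0355 to 0.0475 before TMM scaling. Control 2 and knockout 4 stood apart from the other livers of their groups. Chi-square per degree of freedom was 100.1 to 155.2 in pairs with control 2 against 27.9 to 51.3 among the other controls, and 56.8 to 62.7 in pairs with knockout 4 against 36.5 to 42.3 among the other knockouts. Across all genes, 274 of 13303 tested genes (2.06%) passed the edgeR test, which asks for an adjusted p below 0.05, with 113 higher (0.849%) and 161 lower (1.21%) in the knockouts. The split was 161 higher and 115 lower with library size alone as scaling, and 151 and 86 on log2(TPM + 1). Albumin (Alb), the main hepatocyte transcript, was at 62852 to 95904 CPM in the controls and 85924 to 96109 CPM in the knockouts. Nothing in the labels says whether the mice came from separate litters or cages. The p-values weigh the genotype difference against the spread between these livers and take the livers as independent.

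Cebpa was the only member of the family that passed the test (1 of 6, lower in the knockouts, as were 1.21% of all tested genes), and it is the gene that was deleted. At an unadjusted p below 0.05 there were 3 members (18.5% of all tested genes), of which Cebpb and Cebpg were higher in the knockouts (9.61% of all tested genes). Cebpa (ENSMUSG00000034957.10, chr7:35119293-35121928, plus strand) was at 319.9, 263.6, 269.3 and 320.3 CPM in controls 1 to 4 and at 5.44, 9.26, 7.31 and 6.24 CPM in the knockouts 1 to 4. All knockouts lay far below all controls, so the level matched the labelled genotype in all 8 livers. The remaining signal in the knockouts was 2.41% of the control mean. It rested on 121 to 234 counts per liver, against 5433 to 7386 in controls. Knockout 2 had the most and knockout 1 the least, with 95% exact binomial intervals of 8.11 to 10.5 CPM and 4.51 to 6.49 CPM that cover counting error only. The log2 fold change was -5.37 (95% interval -5.77 to -4.97, edgeR adjusted p = 4.78e-07), the smallest p of all genes tested. A whole liver holds several cell types, and in bulk RNA fewer cells of a type and less RNA per cell cannot be told apart, here and in every result below.

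Cebpb, the member most often named beside Cebpa in liver, had the larger knockout mean but did not pass the test. Cebpb (ENSMUSG00000056501.3, chr2:167688915-167690418, plus strand) was at 91.9, 110.6, 122.0 and 150.4 CPM in the controls and at 215.3, 151.2, 184.8 and 143.6 CPM in the knockouts. The highest control, control 4, lay above knockout 4 and just under knockout 2, so the groups overlapped in CPM, with 3 of 4 knockouts above every control. On the deposited TPM, which are scaled to transcript length, they did not overlap. The range there was 84.06 to 140.4 TPM in the controls and 148.5 to 215.4 TPM in the knockouts. All tested genes leaned toward the knockouts on TPM, by a median of 0.12 on log2(TPM + 0.1). The means were 118.7 ± 24.5 and 173.7 ± 33.0 CPM (SD, n = 4), a ratio of 1.46 whose 95% interval runs from 1.13 to 1.90. On the log2 scale the difference was 0.55 (SE 0.17) and the edgeR adjusted p was 0.132. DESeq2 placed it just inside the threshold (log2 fold change 0.54, adjusted p = 0.0499), where 5.8% of the genes it adjusted passed. Without knockout 1 the log2 fold change was 0.42, and without control 4 it was 0.68. The exact permutation p was 0.0571 (two-sided, 70 splits of 4 against 4, smallest possible 0.0286).

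Cebpd, the other member known for induction in the acute phase, spread widely among the controls and did not pass the test. Cebpd (ENSMUSG00000071637.5, chr16:15887286-15891031, plus strand) was at 6.32, 5.19, 13.5 and 15.8 CPM in the controls and at 18.2, 14.3, 15.2 and 10.6 CPM in the knockouts. Controls 1 and 2 were low and controls 3 and 4 lay within the range of the knockouts. These values rested on 107 counts (control 2) to 406 counts (knockout 1). The log2 fold change was 0.51 (95% interval -0.30 to 1.33, edgeR adjusted p = 0.484). It was 0.29 without control 2 and 0.79 without control 4. Means were 10.2 ± 5.25 and 14.6 ± 3.13 CPM (SD, n = 4), with an exact permutation p of 0.229.

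Cebpg lies beside Cebpa on chromosome 7, had its highest value in knockout 4 and did not pass the test. Cebpg (ENSMUSG00000056216.9, chr7:35046422-35056573, minus strand) was at 58.9, 65.5, 56.2 and 66.6 CPM in the controls and at 63.6, 80.0, 76.0 and 129.4 CPM in the knockouts. The controls were close together (61.8 ± 5.02 CPM, SD, n = 4) and the knockouts spread (87.2 ± 28.9 CPM), with knockout 1 inside the control range in CPM. On the deposited TPM the groups did not overlap, at 16.1 to 19.04 in the controls and 20.52 to 42.67 in the knockouts. TPM also takes in the estimated length of Cebpg, 4458 to 4622 bases in the controls and 4270 to 4527 in the knockouts. The log2 fold change was 0.50 (95% interval 0.05 to 0.94, edgeR adjusted p = 0.221), and without knockout 4 it was 0.24. DESeq2 gave an adjusted p of 0.148, and the exact permutation p was 0.0857.

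**Figure D1:**
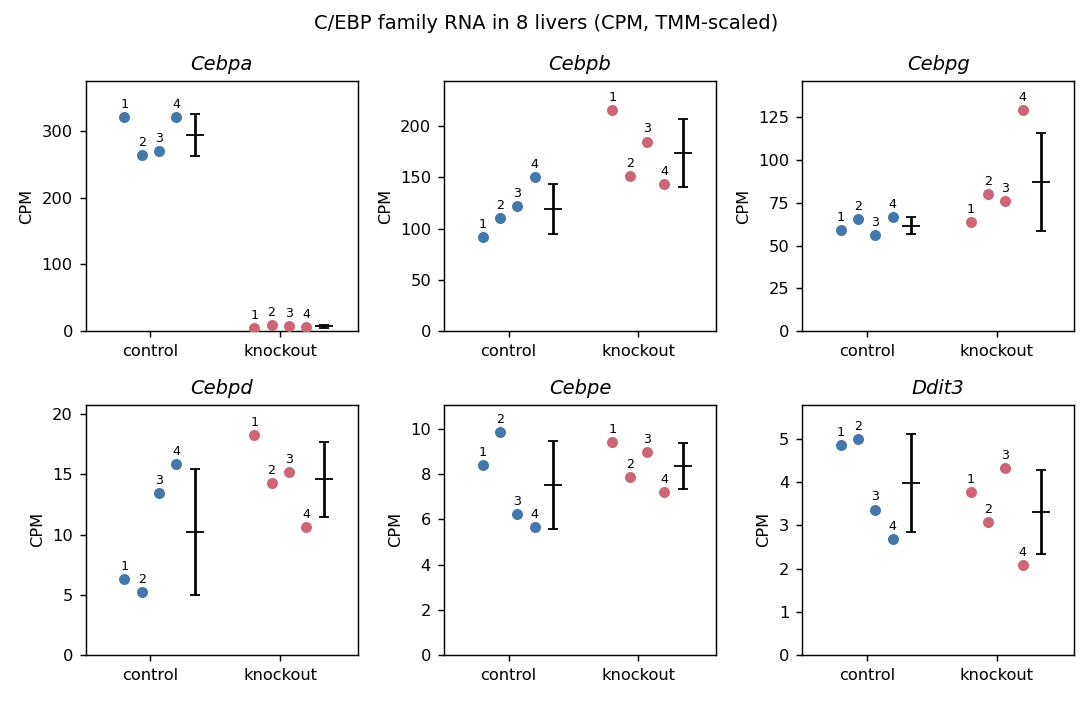
CPM on TMM-scaled library sizes (linear axes from 0, a scale of its own in each panel) of the 6 C/EBP family genes in 4 control livers (blue) and 4 knockout livers (red); numbers name the livers and black marks give mean ± SD (n = 4). The groups are apart for Cebpa, at 263.6 to 320.3 CPM against 5.44 to 9.26 CPM, and overlap on this scale for the other 5 genes, with knockout 4 the highest for Cebpg (129.4 CPM).

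Cebpe and Ddit3 were low in every liver and did not differ between the genotypes by more than the spread between livers. Cebpe (ENSMUSG00000052435.7, chr14:54710360-54712174, minus strand) was at 8.39, 9.85, 6.23 and 5.64 CPM in the controls and at 9.43, 7.87, 8.96 and 7.20 CPM in the knockouts, from 130 to 211 counts per liver. All 4 knockouts lay inside the range of the controls. The log2 fold change was 0.15 (95% interval -0.26 to 0.56, edgeR adjusted p = 0.690). Cebpe is known as a gene of the granulocyte lineage, so the markers of that lineage were read beside it. Of 12 neutrophil and granulocyte precursor markers, Ly6g and Mpo were at 0 counts in all 8 livers and only Csf3r, the receptor of G-CSF, had enough counts to be tested. The 12 summed to 0.520 to 2.14 CPM in the controls and 1.12 to 2.45 CPM in the knockouts, and their part in the Cebpe level was not tested. No other annotated gene overlaps Cebpe.

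Ddit3 (ENSMUSG00000025408.15, chr10:127290774-127296288, plus strand) was at 4.87, 5.00, 3.37 and 2.69 CPM in the controls and at 3.77, 3.09, 4.34 and 2.08 CPM in the knockouts, from 61 to 108 counts per liver. The knockouts lay inside the range of the controls except knockout 4, which was lowest of all. The log2 fold change was -0.27 (95% interval -0.87 to 0.33, edgeR adjusted p = 0.630), and without both control 2 and knockout 4 it was 0.030. As a ratio the interval runs from 0.548 to 1.26 times the control level. The second Ddit3 entry (ENSMUSG00000116429.1), a 105-base transcript inside the first, was listed at 0 in all 8 livers. In the controls, livers 1 and 2 had the higher values of Cebpe and Ddit3 and the lower values of Cebpb and Cebpd. Among the knockouts, knockout 1 was highest for Cebpb, Cebpd and Cebpe.

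**Figure D2:**
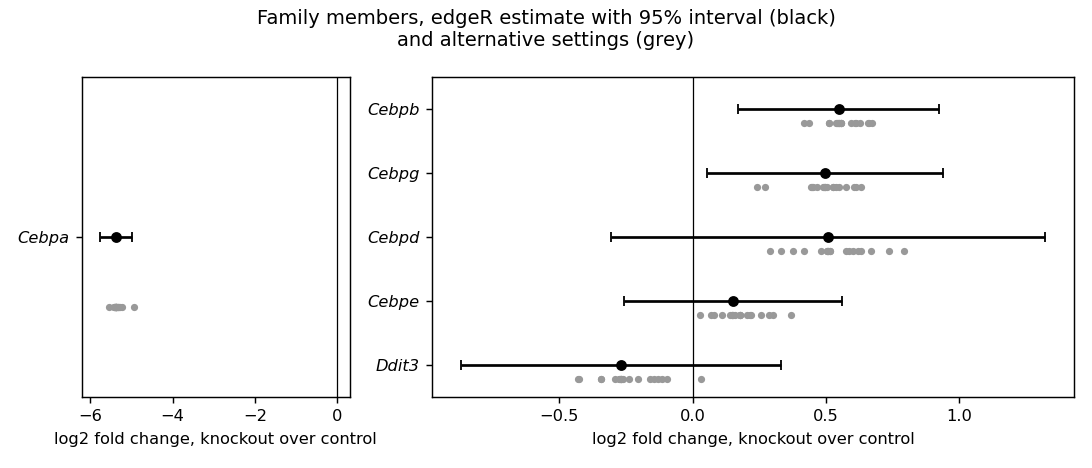
Log2 fold change of knockout over control for each family member, with Cebpa on its own axis. Black points and bars are the edgeR estimate and its 95% interval over 8 livers, and grey points are the alternative settings, including each liver left out in turn. Cebpa lies between -5.53 and -4.94 in all settings, Cebpb, Cebpg, Cebpd and Cebpe stay above 0, and Ddit3 crosses 0 in 1 setting (0.030).

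Levels of different genes were compared on the deposited TPM, which are scaled to transcript length. In the controls Cebpa led with 149.5 ± 11.8 TPM (SD, n = 4), and it exceeded Cebpb (112.5 ± 23.4 TPM) in each of the 4 livers, by 1.15 to 1.88 times, although the ranges of the 2 genes overlapped across livers. Cebpg followed at 17.6 ± 1.37 TPM, apart from its neighbours in the order. Cebpe (8.92 ± 2.38 TPM), Ddit3 (7.35 ± 1.85 TPM) and Cebpd (3.57 ± 1.83 TPM) came last, each overlapping the next. In the ranking of mean TPM over all genes with counts, Cebpa stood at percentile 96.9 and Cebpb at percentile 96.1.

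In the knockouts Cebpb led with 176.9 ± 28.9 TPM, Cebpg was next at 28.4 ± 9.998 TPM and Cebpe followed at 10.7 ± 1.04 TPM, with no overlap between neighbours. Ddit3 (6.71 ± 1.64 TPM), Cebpd (5.51 ± 1.102 TPM) and Cebpa (3.97 ± 1.03 TPM) overlapped in turn, with Cebpa last in all 4 livers. Cebpb thus stood at 0.532 to 0.871 times Cebpa in controls and at 29.99 to 71.3 times Cebpa in knockouts. Its RNA was 30.2% to 41.6% of the summed TPM of the 6 genes in controls and 69.8% to 81.4% in knockouts. Cebpg was 5.46% to 6.63% of the sum in controls and 7.76%, 12.7%, 9.71% and 20.1% in knockouts 1 to 4. Cebpa itself was 47.8% to 56.8% of the sum in controls and 1.14% to 2.48% in knockouts. Its fall alone raises the ratio of Cebpb to Cebpa and the shares of the other members. These values therefore do not measure a change in Cebpb or Cebpg.

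The summed TPM of the family was 299.4 ± 26.03 in controls and 232.2 ± 23.2 in knockouts (SD, n = 4), so the knockout mean was 77.5% of the control mean. The lowest control sum was 278.5 TPM and the highest knockout sum 264.6 TPM. Without Cebpa the sum was 120.4 to 176.0 TPM in controls and 209.1 to 261.6 TPM in knockouts, again with no overlap. Most of that sum is Cebpb. These sums are descriptions and were not tested. On log2(TPM + 0.1) all tested genes had a median difference of 0.12 in favour of the knockouts, against 0.004 in the edgeR fit, and differences in TPM are to be read relative to that shift. The difference of Cebpb on that scale was 0.66, and that of Cebpg 0.63.

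**Figure D3:**
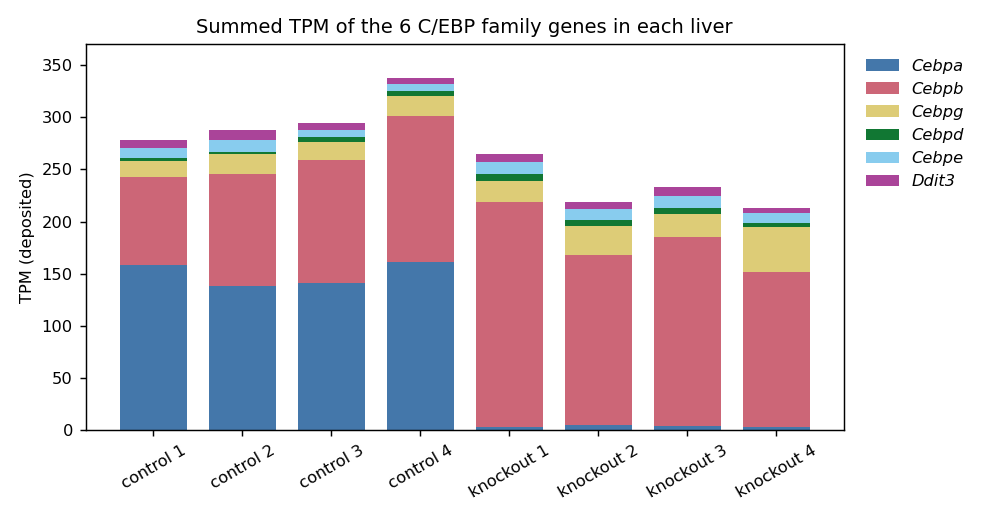
Stacked deposited TPM (linear axis from 0) of the 6 C/EBP family genes in each of the 8 livers. Cebpa (blue) is about as tall as all other members together in the controls and a thin strip in the knockouts (3.02 to 5.42 TPM), where Cebpb (red) is 69.8% to 81.4% of each bar. The fall of Cebpa alone raises that share.

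Since Cebpa and Cebpg share a locus, the genes within 500 kb of Cebpa were read from the same fit. Of 34 annotated genes, 23 had any count and 12 were tested, and none but Cebpa passed. Among the other 11, with Gm35611 included, 6 had a positive log2 fold change (50.7% of all tested genes did). An unadjusted p below 0.05 was found for 5 of the 11 (18.5% of all tested genes). Pepd and Lrp3 had groups that did not overlap (11.5% of all tested genes) and were higher in the knockouts (5.54%). The noncoding RNA Gm35611 also had groups apart, but 0 controls and all 4 knockouts reached the filter on low counts (0.441 CPM), so it was tested through the knockouts alone and had to differ. Pepd, which encodes the peptidase prolidase, ends close to Cebpg and was at 49.8, 47.4, 45.3 and 41.9 CPM in the controls and 73.8, 59.6, 63.7 and 53.0 CPM in the knockouts. Pepd differed by 0.44 on the log2 scale (SE 0.11), with an edgeR adjusted p of 0.0668. With 1 liver left out it passed in 1 of 8 fits, without knockout 4 (adjusted p = 0.0278), and reached 0.159 without control 4. Lrp3, a receptor of the LDL receptor family on the other side of Cebpa, was at 20.1 to 23.1 CPM in the controls and 25.9 to 35.005 CPM in the knockouts. Lrp3 differed by 0.46 on that scale (SE 0.10), with an edgeR adjusted p of 0.0515. It too passed in 1 of 8 such fits, without knockout 2 (adjusted p = 0.0488), and reached 0.121 without control 3. DESeq2 called both genes, with adjusted p of 0.0178 for Pepd and 0.00926 for Lrp3. Gm35611, which lies 28.5 kb from Cebpa on the Cebpg side, averaged 0.149 and 0.571 CPM, from 13 counts in all controls together and 57 in all knockouts (edgeR adjusted p = 0.105). Gm45091, the antisense gene that overlaps Cebpa by 51 exonic bases, had too few counts to be tested, at 0.169 to 0.390 CPM in the controls and 0.396 to 0.629 CPM in the knockouts.

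**Figure D4:**
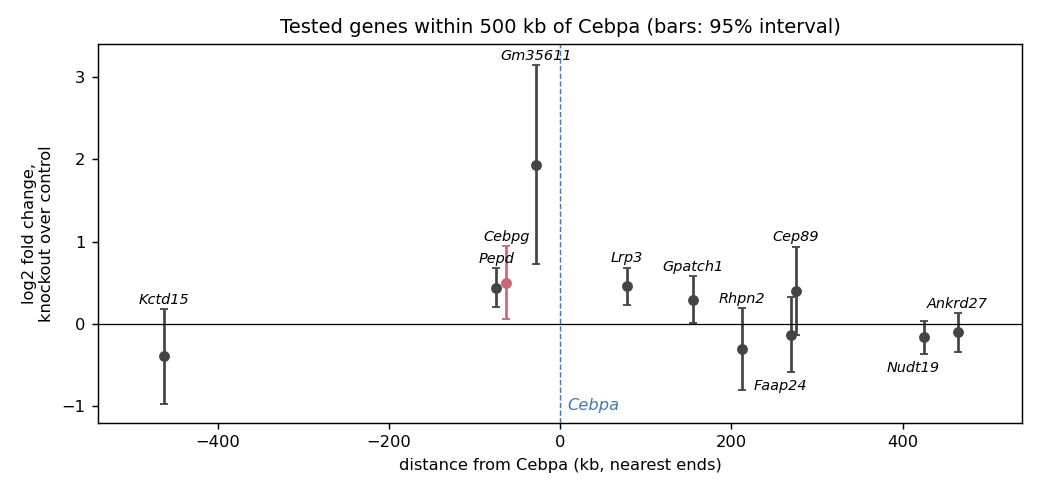
Log2 fold change of knockout over control, with 95% intervals, for the 11 tested genes besides Cebpa within 500 kb, against distance from Cebpa in kb; Cebpg is red and the dashed line marks Cebpa. Pepd (0.44), Cebpg (0.50), Gm35611 (1.93) and Lrp3 (0.46) are the nearest tested genes and lie above 0. Gpatch1, the next, is above 0 too (0.29, interval 0.006 to 0.58, edgeR adjusted p = 0.262). Rhpn2 and the genes farther out lie on either side of 0, with intervals that include it.

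Among genes whose proteins control C/EBP factors, Trib1 and Ep300 fell. Of 20 such genes tested, 2 were lower in the knockouts (1.21% of all tested genes) and none was higher, with a median log2 fold change of -0.13 (0.004 over all tested genes). At an unadjusted p below 0.05 there were 4, a share near the 18.5% of all tested genes. Trib1 encodes a Tribbles pseudokinase that hands C/EBP alpha to the ubiquitin ligase COP1. It was at 51.7, 47.9, 40.7 and 40.2 CPM in the controls and 14.6, 20.3, 28.2 and 12.0 CPM in the knockouts, with every knockout below every control. Trib1 fell by 1.27 on the log2 scale (SE 0.24, edgeR adjusted p = 0.0388). The call was kept without knockout 3 (adjusted p = 0.00957) or knockout 4 (0.0364) and lost when any other liver was left out, with adjusted p from 0.0721 to 0.107. It was also lost without the filter on low counts (0.0918) and without both control 2 and knockout 4 (0.0748), where 1 gene of the list was called. Ep300, an acetyltransferase coactivator that C/EBP proteins recruit, was at 47.7 to 50.8 CPM in the controls and 34.8 to 40.6 CPM in the knockouts. Its log2 fold change was -0.37 (edgeR adjusted p = 0.0332), a call kept without control 2 (adjusted p = 0.0432) or knockout 4 (0.0366) and lost without any other liver (0.0502 to 0.0913). With library size alone as scaling its adjusted p was 0.0666, and on log2(TPM + 1) it was 0.267.

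Other bZIP factors can share partners or sites with the family. Of 27 tested, 2 fell (1.21% of all tested genes) and none rose, with a median log2 fold change of -0.02 and 7 genes at an unadjusted p below 0.05 (18.5% of all tested genes). Bach1, a heme-regulated repressor that pairs with small Maf proteins, was at 64.0, 77.4, 63.4 and 64.0 CPM in the controls and 29.2, 29.6, 29.4 and 33.3 CPM in the knockouts. It fell by 1.14 on the log2 scale (SE 0.09, edgeR adjusted p = 0.000317) and was called with any 1 liver left out. Atf6, a sensor of endoplasmic reticulum stress, averaged 101.3 ± 14.5 and 68.6 ± 5.18 CPM (SD, n = 4; log2 fold change -0.56, edgeR adjusted p = 0.0295). The Atf6 call was lost without control 3 (adjusted p = 0.0705), knockout 1 (0.0831), knockout 2 (0.0905) or knockout 3 (0.0502), and on log2(TPM + 1) (0.101). Log2 fold changes were positive in 50.7% of all tested genes. The 4 factors of the PAR group and Nfil3, which bind related sites, all had negative ones (median -0.38) and none passed. Tef, the most significant of them, was at 203.9 ± 29.8 CPM in the controls and 155.6 ± 19.4 CPM in the knockouts (SD, n = 4), with an edgeR adjusted p of 0.143.

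The integrated stress response, which leads through ATF4 to Ddit3, showed no called gene. Of 26 tested genes of that response, 13 had a log2 fold change above 0 and 13 one below it, and the median was 0.002. By unadjusted p below 0.05 there were 5 (18.5% of all tested genes) and by DESeq2 1, Stc2 (5.8% of the genes it adjusted). Atf4 itself was at 57.8 ± 5.19 CPM in the controls and 53.3 ± 4.86 CPM in the knockouts (SD, n = 4), with an edgeR adjusted p of 0.537. Stc2, which encodes a secreted stanniocalcin, was at 0.361, 0.146, 0.126 and 0.130 CPM in the controls and 0.764, 0.514, 0.731 and 0.512 CPM in the knockouts. No control reached the filter on low counts (0.441 CPM), so Stc2 was tested through the knockouts alone and its groups could not overlap. Its edgeR adjusted p was 0.0689. Of 8 fits with 1 liver left out it passed in 1, without control 1, the highest control (0.0433), and reached 0.161 without knockout 1.

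The interleukin 6 and STAT3 route, which induces Cebpb and Cebpd in the acute phase, also held no called gene among 12 tested (median log2 fold change 0.001, 3 at an unadjusted p below 0.05 beside 18.5% of all tested genes, 2 called by DESeq2 beside 5.8%). Stat3, the transducer, averaged 102.2 ± 7.09 and 81.3 ± 5.00 CPM (SD, n = 4), without overlap (edgeR adjusted p = 0.0665). With 1 liver left out Stat3 passed in 1 of 8 fits, without knockout 4 (0.0422), and reached 0.189 without knockout 2. Socs3, its feedback inhibitor, was at 6.77, 12.8, 4.93 and 5.90 CPM in the controls and 2.61, 3.01, 3.98 and 4.40 CPM in the knockouts (edgeR adjusted p = 0.104). Il6 had too few counts to be tested. A list of 18 acute phase genes, which leaves out Orm1 (given below with the C/EBP targets), had no gene that passed the edgeR test over all 8 livers. DESeq2 called 1 of them, Lbp (adjusted p = 0.00125, beside 5.8% of the genes it adjusted). Without both control 2 and knockout 4, edgeR called Lbp alone (adjusted p = 0.00133), where 246 of 13371 tested genes were lower. With 1 liver left out Lbp passed in 1 of 8 edgeR fits, without control 2 (0.0320), and reached 0.267 without knockout 2. In the list of 18, negative log2 fold changes numbered 17 (median -1.03), where 50.7% of all tested genes had positive ones. An unadjusted p below 0.05 was found for 11 of the 18 (18.5% of all tested genes). The 18 summed to 43323 CPM in control 2, against 15453 to 18228 CPM in the other controls and 12738 to 17723 CPM in the knockouts. Control 2 was thus the liver with the most acute phase RNA and the least Cebpd, and its Cebpb was below that of every liver but control 1. Without control 2 and knockout 4 the median of the list was -0.58.

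Of 26 liver genes described as C/EBP targets, 3 fell (1.21% of all tested genes), none rose and 9 had an unadjusted p below 0.05 (18.5% of all tested genes), with a median log2 fold change of -0.14. Gys2, the liver glycogen synthase, averaged 330.6 ± 39.0 CPM in the controls and 192.2 ± 18.9 CPM in the knockouts (SD, n = 4; log2 fold change -0.78, edgeR adjusted p = 0.00830). Serpina1a, an alpha-1 antitrypsin, averaged 3488 ± 471 and 1236 ± 288 CPM (log2 fold change -1.50, edgeR adjusted p = 0.00364). Orm1, an acute phase plasma protein, was at 61.2 to 1413 CPM in the controls and 0.183 to 2.76 CPM in the knockouts (edgeR adjusted p = 0.0464). The Orm1 call was lost in 6 of 8 fits with 1 liver left out, all but those without control 2 or control 4, and also with library size alone (adjusted p = 0.0512), without the filter (0.0682) and with limma-voom (0.138). Serpina1a and Orm1 have close paralogs among which the authors' estimation divided reads, so their own levels are uncertain. Most listed targets did not pass, and Alb and Ttr had log2 fold changes of 0.19 and 0.34 (edgeR adjusted p = 0.532 and 0.233).

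**Figure D5:**
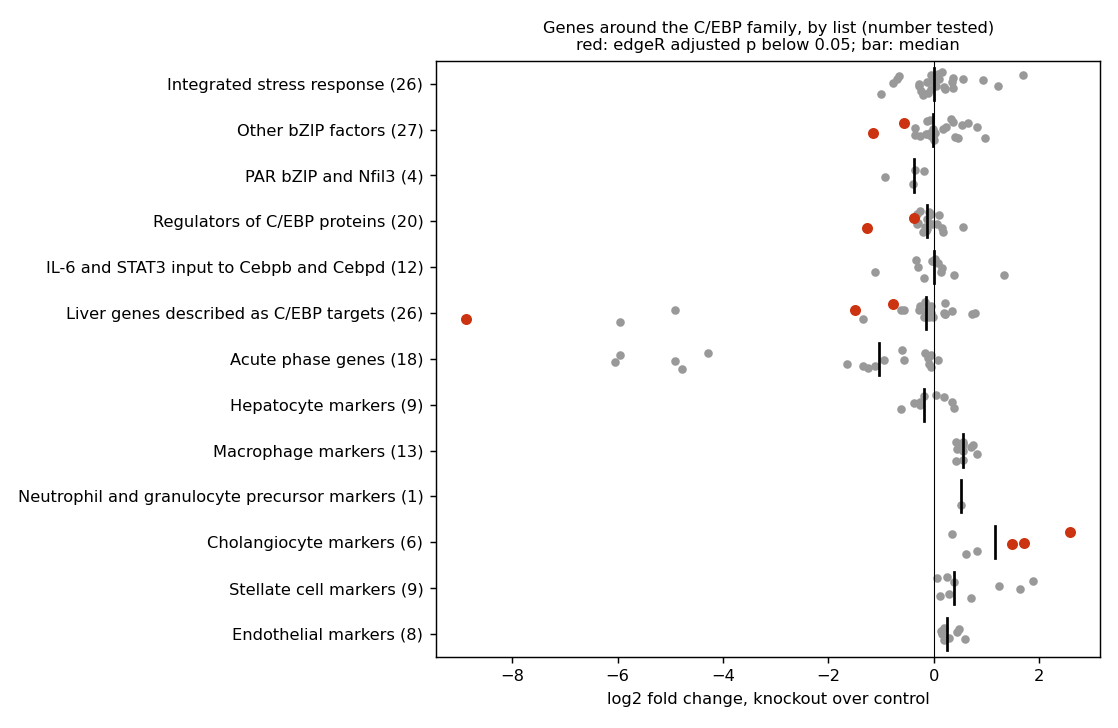
Log2 fold change of knockout over control for each tested gene of 13 lists around the C/EBP family; red points passed the edgeR test, grey points did not, black bars are medians, and the vertical spread within a list only separates points. Red points lie to the left for other bZIP factors (2), regulators (2) and described targets (3), and to the right for cholangiocyte markers (3).

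Markers of other liver cells were read beside these values. Of 6 tested cholangiocyte markers 3 rose (0.849% of all tested genes), with Spp1 at 21.3 to 58.1 CPM in the controls and 107.3 to 353.2 CPM in the knockouts (log2 fold change 2.59, edgeR adjusted p = 0.0359). Epcam rose from 0.729 ± 0.227 to 2.05 ± 0.286 CPM (SD, n = 4) and Krt19 from 0.445 ± 0.267 to 1.45 ± 0.184 CPM, with edgeR adjusted p of 0.0216 and 0.0467. With 1 liver left out, the Spp1 call was kept without control 2 (adjusted p = 0.0379) or knockout 3 (0.0348) and otherwise lost (up to 0.0892 without control 1), and it was lost without the filter (0.0808). Krt19 reached the filter in 1 control and all 4 knockouts. Its call was kept without control 2 (0.0155) and otherwise lost (up to 0.119 without knockout 2). The Epcam call was lost without control 3 (0.0512), control 4 (0.0699), knockout 1 (0.0705) or knockout 2 (0.0659). Without both control 2 and knockout 4, 2 of the 3 were called. All 8 cholangiocyte markers summed to 34.4 to 73.0 CPM in the controls and 128.2 to 372.9 CPM in the knockouts. Most of that was Spp1, and the other 7 summed to 13.1 to 14.9 CPM and 19.4 to 24.3 CPM. The 13 macrophage markers summed to 204.8 to 420.4 and 327.3 to 541.5 CPM, the 9 stellate cell markers to 126.5 to 242.0 and 216.3 to 470.0 CPM, and the 8 endothelial markers to 147.2 to 185.9 and 173.1 to 236.8 CPM. In the stellate cell list knockout 2 alone lay above the controls, and the other knockouts were at 216.3 to 235.6 CPM. All members of those 3 lists had positive log2 fold changes (50.7% of all tested genes did) and none passed the edgeR test. DESeq2 called 1 of them, Lyz2 (adjusted p = 0.0134, beside 5.8% of the genes it adjusted). At an unadjusted p below 0.05 there were 6 of 13 macrophage, 4 of 9 stellate cell and 2 of 8 endothelial markers. Of the tested cholangiocyte markers 6 of 6 were below it (18.5% of all tested genes). None of these 4 lists had a marker at 0 in all livers. Cebpb, Cebpd and Cebpg are known to be expressed in such cells too, and the part of these cells in the levels of the family was not tested.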

How the data were processed

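Per the labels' protocols, polyadenylated RNA of 8 livers went through a stranded TruSeq kit. RSEM 1.2.22, STAR 2.5.1, Trimmomatic 0.36, Picard 1.84, DESeq2 and mm10 are named in the submitters' processing notes. Expected counts (RSEM's estimated counts, 4.96% of them not whole) and the authors' TPM were deposited per liver, with isoform-weighted gene and effective lengths. All 55450 identifiers matched GENCODE M21, which gave coordinates and sequences.

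Groups follow the genotype in the labels. Counts were rounded and fitted in edgeR 4.0.16 (R 4.3.3) with filterByExpr (minimum count 10, total 15), TMM factors and the robust quasi-likelihood test, two-sided, with Benjamini-Hochberg adjustment over 13303 genes and a threshold of 0.05. The SE comes from the fold change and the F statistic, and intervals are at 95%. CPM uses TMM-scaled library sizes. Exact binomial counting intervals cover counting error only. Exact permutation tests used all 70 splits of log2 CPM (prior count 2). No pair of livers agreed within sampling noise. The steps were tested on simulated data.

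The members and the 14 gene lists were chosen with earlier results of these data known. Named genes are all members, the called genes of each list (at most 6) or else its 2 smallest adjusted p, tested genes within 500 kb of Cebpa, and the 4 genes most like each member. Some genes that the rule names are not reported here. Alb, Atf4, Saa2 and Gm45091 were named outside the rule, after their values were seen. Alternatives were DESeq2 1.42.0, RLE factors, no filter, library size alone, 1 CPM in 4 livers, limma-voom and limma-trend (limma 3.58.1) with pseudocounts 1 and 0.1, no robust estimation, a replicate block, TPM shares recomputed from expected counts and effective lengths, each liver left out, and control 2 and knockout 4 left out together. The series-wide table repeated the per-liver counts. Figures used matplotlib 3.10.9.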

Additional observations from a re-analysis of the deposited data

Results flagged for a closer look

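A liver whose value lay far from the other 3 of its group was looked for in 106 groups of 4, by the gap to the nearest value over the whole range of the group (against Dixon's critical value at 95%). It was found in 14 groups, where chance gives about 1 in 20. No C/EBP family gene was among them. Control 2 was the liver apart for Bach1 (77.4 CPM), Gys2 (388.4 CPM), Orm1 (1413 CPM), Lbp (145.8 CPM), Lcn2 (190.2 CPM), Saa2 (3490 CPM) and Ankrd27 (30.5 CPM), and was the highest control each time. Lbp, Lcn2, Orm1 and Saa2 are acute phase genes. Knockout 4 was the liver apart and the highest knockout for Bach1 (33.3 CPM), Orm1 (2.76 CPM) and Lbp (43.3 CPM). Knockout 2 was apart for Col3a1, a collagen of stellate cells and fibroblasts (129.2 CPM). Control 1 was apart for Stc2 (0.361 CPM), control 3 for Kctd15 (10.3 CPM) and control 4, the lowest, for the amino acid transporter Slc7a1 (0.217 CPM).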

How the results depend on the processing

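Cebpa was called in every alternative fit of its fold change, with a log2 fold change of -5.53 to -5.28 when 1 liver was left out. The higher values of Cebpb, Cebpd, Cebpe and Cebpg kept their sign in all of those fits, with ranges over single livers left out of 0.42 to 0.68, 0.29 to 0.79, 0.03 to 0.30 and 0.24 to 0.61. Of these only Cebpb was called anywhere, by DESeq2 (0.54, adjusted p = 0.0499). Ddit3 ranged from -0.43 to -0.10 with 1 liver left out and was 0.030 without control 2 and knockout 4. Ankrd27, a neighbour of Cebpa, turned from -0.10 to 0.052 and 0.058 on log2(TPM + 1) and log2(TPM + 0.1) and ran from -0.15 without control 4 to 0.0050 without control 2. Genes higher and lower in the knockouts numbered 113 and 161, but 388 and 462 with DESeq2 and 185 and 246 without control 2 and knockout 4. The lower genes were 86 and 84 on the TPM scales with pseudocounts 1 and 0.1. With 1 liver left out the higher genes ranged from 46 (without knockout 1) to 167 (without knockout 4), and the lower from 61 (without knockout 2) to 205 (without knockout 4). The cause of these moves was not tested.

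The labels do not say whether the replicate numbers of the titles pair the livers. Deviations of livers with the same number correlated at 0.207, 0.009, -0.024 and -0.067. With 1 value per number, these correlations cannot exclude a shared litter, cage or day. With a replicate block, 78 genes were higher and 98 lower, and no other family member than Cebpa was called (Cebpb adjusted p = 0.235 in edgeR). The calls of Trib1, Ep300, Atf6, Orm1, Epcam and Krt19 were lost with it (adjusted p from 0.0593 to 0.125).

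Ddit3, Cebpe and Cebpd rested on 61 to 406 counts per liver. The filter of 1 CPM in 4 livers gave no value for Stc2, Slc7a1 or Gm35611, and DESeq2 gave no adjusted p for Lcn2, Col3a1 or Saa2.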

Other observations

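The genes whose level followed each member most closely from liver to liver were read after subtracting each group's mean log2 CPM, over 8 livers and 11112 genes that averaged 1 CPM or more. These correlations are descriptions. With so few livers high values are common, and depth and the livers that stand apart are shared by all genes. Cebpa was followed by Slc39a13, a zinc transporter (Pearson r = 0.979), Sp110, Pamr1 and Mef2c, and only 8 genes had r above 0.9. On the log2 scale Cebpa spread more among the knockouts (5.44 to 9.26 CPM) than among the controls (263.6 to 320.3 CPM). These r therefore rest mostly on the signal left in the knockouts, from 121 to 234 counts per liver. Cebpb was followed by Nicn1 (r = 0.971), Pank3, a pantothenate kinase, and Gpr137, with 20 genes above 0.9. Cebpd was followed by Inpp5b (r = 0.984), Senp7 and Rtf2 (53 genes above 0.9), and Cebpg by Dcaf5 (r = 0.991), Nol11, Tigd2 and Zcchc2 (95 genes). Cebpe was followed by Gadd45gip1 (r = 0.984), Vps37c, the chaperone Calr and the lysosomal Lamp1 (66 genes). Ddit3 was followed by Dis3l (r = 0.984), Txndc11, Rnf14 and Vapb (76 genes). No member was among the 4 closest genes of another member.

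With group means kept, the genes closest to Cebpa were Nxpe2 (r = 0.993), Cldn14, Tspan31 and Nedd4, and 139 genes had r above 0.9. Since Cebpa splits by genotype, such r picks genes that split the same way, and the means below follow from that choice. Nedd4 averaged 287.5 CPM in the controls and 252.5 CPM in the knockouts and did not pass (edgeR adjusted p = 0.205). Nxpe2 averaged 19.5 CPM in the controls and 3.62 CPM in the knockouts, and Tspan31 201.2 and 146.4 CPM. Cldn14, which encodes a tight junction claudin, averaged 2.999 and 0.0269 CPM.

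Of 9 tested hepatocyte markers none passed, 4 had positive and 5 negative log2 fold changes, and 3 had an unadjusted p below 0.05 (18.5% of all tested genes). They summed to 90099 to 124507 CPM in the controls and 111392 to 123812 CPM in the knockouts, mostly from Alb. Cps1, the mitochondrial enzyme that starts the urea cycle, had the smallest adjusted p of the 9 (edgeR, 0.0763). It averaged 2874 ± 405 CPM in the controls and 1870 ± 307 CPM in the knockouts (SD, n = 4).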
